A study of Rattus norvegicus with 49 samples.

Results

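Cyp2c12, Sult2a2, A1bg, Cpa1 and Prlr are liver genes that a continuous supply of growth hormone, or oestrogen, keeps high in the female rat. They were followed here in the liver of inbred F344 rats of both sexes after 90 days of furan, a contaminant that forms when food is heated. The 5 genes were found through the RefSeq accession of each array probe, and each had exactly 1 probe among the 30367 probes of the array, of which 18004 carried one of 15154 gene symbols. All 5 probes passed the filter on dim signals, as did 17698 probes in total, but Sult2a2, A1bg and Cpa1 passed it only through female arrays. The genes were chosen by their log2 difference between female and male controls, which is therefore described below and not tested. The rise of Cyp2c12 in males at 2 mg/kg was also known by then, so its p-values below describe these arrays and are not independent evidence. The question was whether they are higher in furan-treated males, whose livers normally hold little of them.

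Dosing started at an age of 7 to 8 weeks. Controls (0 mg/kg) were gavaged with the corn oil vehicle, and treated rats with furan in it, 5 times a week at a top dose of 2 mg/kg or at 0.5, 0.12 and 0.03 mg/kg. Each of the 10 groups held 5 rats, except that the males at 0.03 mg/kg were 4, and the labels name no transgene or deletion. Liver RNA labelled with Cy5 was hybridised against a universal rat reference RNA, a mixture of tissues, labelled with Cy3, on 49 two-colour arrays without dye swaps. Values are log2 ratios of liver over reference, so a difference of 1 is a doubling.

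Growth hormone reaches the liver in pulses in male rats and almost continuously in females. Its receptor signals through JAK2 and the factor STAT5b, which the pulses activate anew in males, while the continuous pattern keeps up factors such as HNF6, the product of Onecut1, that act on female genes. Cyp2c12 encodes the classical female-specific cytochrome P450 of rat liver, which hydroxylates steroid sulphates. Sult2a2 encodes a sulphotransferase of hydroxysteroids and bile acids, and A1bg a secreted plasma protein of the immunoglobulin superfamily. Prlr encodes the prolactin receptor, which oestrogen and growth hormone raise in the liver. Cpa1 encodes carboxypeptidase A1, best known as a digestive enzyme of the pancreas.

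The sequence just before a listed start of 4 of these genes is shown because the listed letters of 2 growth hormone-linked factors occur there. RefSeq promoters on the GRCr8 build were read for the 250 bases before each listed start, 5′ to 3′, and were available for all 5 genes, with 2 starts for Prlr. The stretches of Cyp2c12, A1bg and Prlr lie inside the annotated span of the gene, so the outermost starts of these genes were not read. Capitals mark ATTGAT, the core bound by HNF6, and TTCNNNGAA, the pattern bound by STAT5, on either strand. None of the marked matches overlap.
Cyp2c12: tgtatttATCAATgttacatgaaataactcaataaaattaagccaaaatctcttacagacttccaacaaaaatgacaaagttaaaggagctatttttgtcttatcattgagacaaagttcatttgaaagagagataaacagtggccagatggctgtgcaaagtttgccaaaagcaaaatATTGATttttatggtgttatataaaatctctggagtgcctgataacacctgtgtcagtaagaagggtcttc
A1bg: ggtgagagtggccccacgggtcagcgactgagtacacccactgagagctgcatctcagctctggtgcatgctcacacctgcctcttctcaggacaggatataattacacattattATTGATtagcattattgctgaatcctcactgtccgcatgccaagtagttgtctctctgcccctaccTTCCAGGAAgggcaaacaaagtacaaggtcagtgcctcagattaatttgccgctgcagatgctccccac
Cpa1: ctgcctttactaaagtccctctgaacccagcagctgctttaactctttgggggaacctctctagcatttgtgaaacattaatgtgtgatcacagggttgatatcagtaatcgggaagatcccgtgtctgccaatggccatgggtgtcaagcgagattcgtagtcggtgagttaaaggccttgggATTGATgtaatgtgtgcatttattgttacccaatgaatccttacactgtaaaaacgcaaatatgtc
Prlr, second start: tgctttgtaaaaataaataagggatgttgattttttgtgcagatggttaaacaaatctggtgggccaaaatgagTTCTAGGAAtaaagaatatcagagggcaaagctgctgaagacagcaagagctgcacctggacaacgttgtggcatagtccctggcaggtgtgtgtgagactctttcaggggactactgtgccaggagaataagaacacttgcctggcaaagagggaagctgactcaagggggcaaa
Those stretches lie at chr1:248677035-248677284 (minus strand), chr7:94387497-94387746 (minus strand), chr4:60224551-60224800 (plus strand) and chr2:60909409-60909658 (plus strand). The Cyp2c12 stretch held the HNF6 core at 243 to 238 and again at 71 to 66 bases before the start. A1bg held it at 135 to 130 and Cpa1 at 66 to 61 bases before the start, so 3 of 5 genes had it, against 7.1% of 33469 promoters of that length. The STAT5 pattern stood at 69 to 61 bases before the start of A1bg and at 176 to 168 bases before the second start of Prlr, and in 7.67% of all promoters. Neither pattern was in the Sult2a2 stretch or before the first start of Prlr. The full oestrogen response element, GGTCA and TGACC with 3 bases between them, was in none of the stretches of the 5 genes and in 0.0239% of all promoters. These letters are a description of the sequence, and binding was not measured.

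The share of spots well above background was 37.9% to 71.1% in the liver channel of 48 arrays and 5.06% for male 26 of the 0.03 mg/kg group, called the dim array below. The labels mention 1 eliminated male array, and nothing in them ties it to this rat. The arrays came from 8 slides, and the slides differed. Slides 5 and 6 held 10 treated and 0 control arrays and had medians of 43.2% and 45.0%, whereas slides 1 to 4, with 8 of the 10 control arrays, had medians of 61.1% to 69.0%. The hepatocyte genes Alb, Apoa1, Ttr, Tf and Serpina1 were above background on every array, and their mean ratio ranged from 5.03 to 8.36 over male arrays. Each result below is therefore given with all arrays and no slide term, which follows the methods of the study, and again with slide as a block.

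In control rats the order of the female levels was Cyp2c12 at 10.03 ± 0.36, Sult2a2 at 7.46 ± 0.52, A1bg at 7.24 ± 0.72, Prlr at 5.99 ± 0.41 and Cpa1 at 5.79 ± 0.64 (mean log2 ratio ± SD, n = 5). Sult2a2 and A1bg, and likewise Prlr and Cpa1, lay within each other's spread. These are ratios to the reference and not amounts, so the order does not rank the messages in the liver. Control males had 2.95 ± 0.86 for Cyp2c12, 1.13 ± 0.51 for Prlr, 0.47 ± 0.19 for Sult2a2, 0.28 ± 0.22 for A1bg and -0.11 ± 0.16 for Cpa1 (n = 5). Cyp2c12 and Prlr were thus measurable in every control male, while the other genes sat near background. The liver signal was above background on 5 of 5 control males for Cyp2c12 and Prlr, on 3 for Sult2a2, on 1 for A1bg and on 0 for Cpa1. Control females exceeded control males by 7.08 for Cyp2c12, 7.00 for Sult2a2, 6.96 for A1bg and 4.86 for Prlr on the log2 scale. The Sult2a2 and A1bg differences are set against male ratios near background. For Cpa1 the liver signal was at least 421-fold higher in control females.

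In treated rats the arrays of the females lay above those of the males in the same way. For Cyp2c12 and Prlr, which also passed the filter on male arrays, the difference was called at each of the 4 doses, with limma adjusted p of at most 2.75e-06. No test is given for the other genes, which entered through the sex where they are high. A comparison was called here when its Benjamini-Hochberg adjusted p was at most 0.05 and its change at least 1.5-fold. Among all tested probes, 2.93%, 1.93%, 2.29% and 2.15% were called between the sexes at 0.03, 0.12, 0.5 and 2 mg/kg. The lowest female Cyp2c12 value was 8.64 and the highest male value 5.71, and for Prlr they were 4.17 and 2.96. Such a separation follows from choosing genes by their sex difference in controls, and no share of all probes is given beside it. The A1bg values ran from 5.49 to 8.11 in females and from -0.08 to 1.49 in males. Within each of the 8 slides the females also lay above the males, by 5.98 to 8.46 for Cyp2c12 and by 3.61 to 5.47 for Prlr. On male arrays at 0.03 and 0.12 mg/kg A1bg was nowhere above background, and female liver signals were at least 617-fold and 764-fold higher there. These bounds use the liver channel alone, so they are not on the scale of the ratio differences above.

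**Figure D1:**
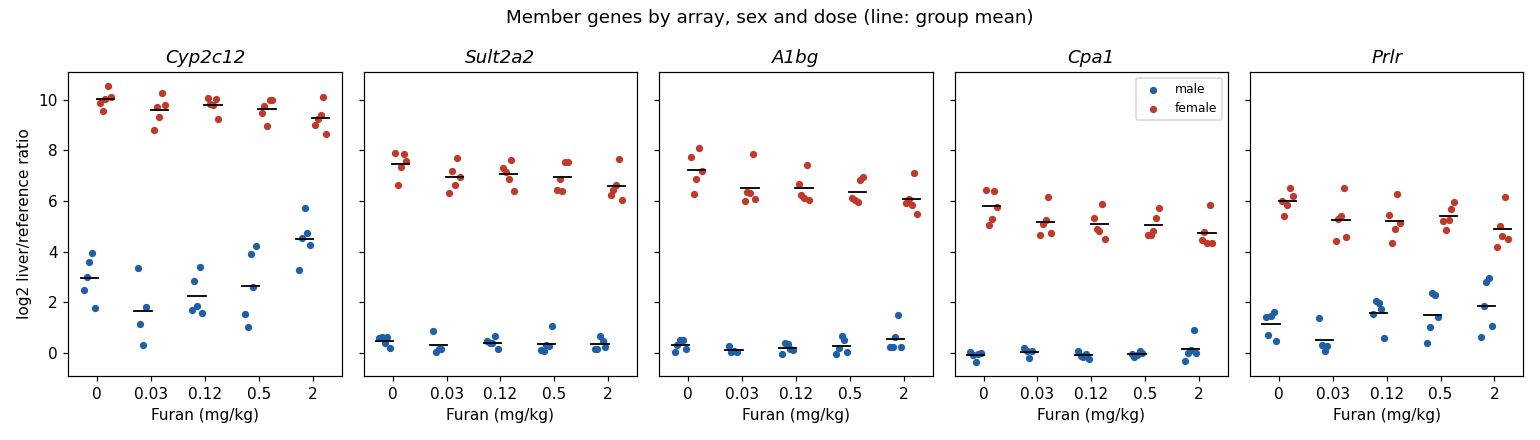
Log2 liver/reference ratio (vertical axis) of each gene on every array by furan dose in mg/kg (horizontal axis), males in blue and females in red, with group means as black lines. The genes were chosen by their sex difference in controls. The male Cyp2c12 mean is 4.50 at 2 mg/kg against 2.95 in controls.

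The reference RNA was the same commercial pool throughout, yet its Cy3 signal at these spots differed with the sex of the liver sample on the array. The reference signal of Cyp2c12 was above background on 25 of 25 female arrays and on 0 of 24 male arrays, with median intensities of 72.5 and 5.38 after subtraction of the local background. A1bg had medians of 1144 on female and 7.63 on male arrays, and Cpa1 of 1306 and 22.0. For Cyp2c12, Sult2a2, A1bg and Prlr the reference was above background on all female arrays and on at most 3 male arrays. Over 17698 tested probes 5 had this pattern, including those 4, and all 5 were brighter in female liver. The mirror pattern, above background on at least 23 male and at most 3 female arrays, was found for 19 probes, all of them brighter in male liver. The source of this reference signal was not tested, and a ratio divided by it is smaller than the liver signal alone would give.

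Among the members, Cyp2c12 showed the clearest change in treated males. The 5 control males had log2 ratios of 1.78, 2.49, 2.98, 3.59 and 3.93. At 2 mg/kg the values were 3.27, 4.24, 4.54, 4.74 and 5.71, so that 4 of 5 treated males lay above every control and the lowest lay inside the control range. The mean difference was 1.55 (SE 0.50, limma adjusted p = 0.0687, 95% interval 0.54 to 2.55), or 2.92-fold, and missed the threshold. In the fit with slide as a block it was 2.03 (SE 0.32, adjusted p = 6.27e-05), a 4.10-fold rise that was called. Without the dim array the difference of 1.55 was also called (adjusted p = 0.0369, beside 4.16% of all tested probes), and without male 81 at 2 mg/kg, the lowest of its group, it was 1.85 (adjusted p = 0.0433). The blocked difference ranged from 1.87 to 2.22 over the 10 arrays of these groups left out in turn, and every one of these fits called it.

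On the slides that held both a control and a 2 mg/kg male, each pair gave the same direction for Cyp2c12. Male 86 exceeded control 2 on slide 2 by 2.24, male 84 exceeded control 5 on slide 4 by 1.78, and male 87 exceeded control 6 on slide 8 by 2.46. The lowest 2 mg/kg value, 3.27 of male 81, came from slide 5, which had no control array. The other males on that slide, at 0.12 and 0.5 mg/kg, had lower values, the higher of them 1.56. Male 83, at 4.54, shared slide 7 with males at 0.03 and 0.5 mg/kg that had 1.81 and 2.58. In a bulk liver sample, more cells that make a message and more of it per cell cannot be told apart.

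**Figure D2:**
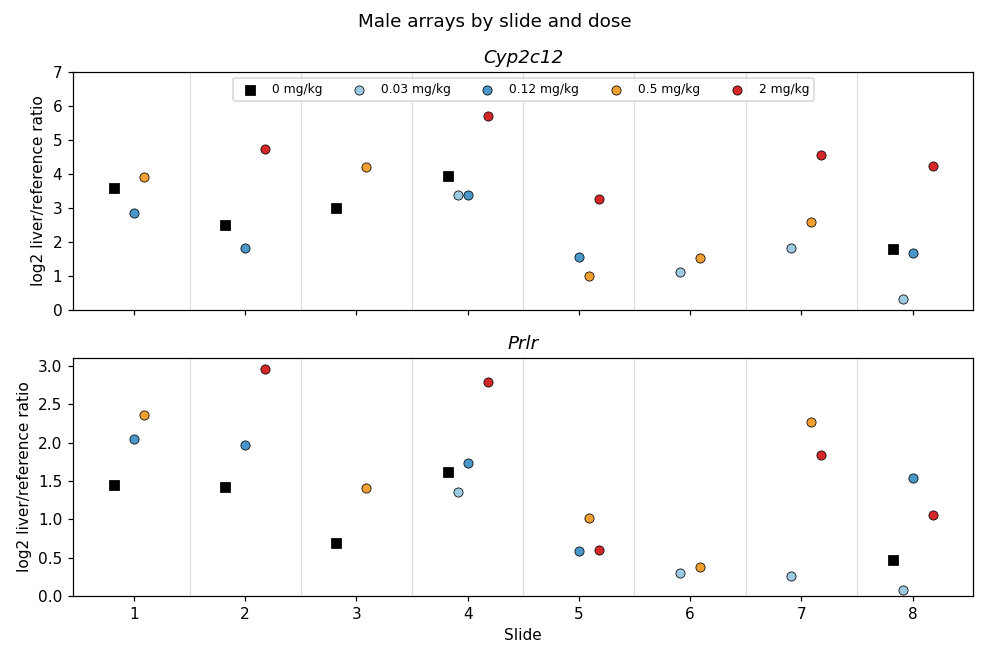
Log2 liver/reference ratio (vertical axes) of Cyp2c12 and Prlr on each male array, by slide (horizontal axis), with colours for the furan dose in mg/kg and squares for controls. On each of the 5 slides that hold one, the 2 mg/kg array is the highest male array for Cyp2c12, by 2.24, 1.78 and 2.46 over the control on slides 2, 4 and 8.

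Prlr had control values of 0.47, 0.70, 1.42, 1.44 and 1.61 in males. At 2 mg/kg the values were 0.60, 1.05, 1.84, 2.79 and 2.96, with 3 of 5 above every control and the lowest pair within the control range. The difference of 0.72 (SE 0.43, limma adjusted p = 0.349, 95% interval -0.14 to 1.58) was smaller than the spread between arrays could separate. The blocked fit gave a 2.00-fold rise of Prlr (SE 0.24 on the log2 scale, adjusted p = 0.00523), and the call held whichever of the 10 arrays was left out (log2 differences of 0.89 to 1.11). It was not called with slide as a block when the liver channel alone or the log ratio of the scanner software was used, nor in any setting without the slide except slide as a random block. The treated male exceeded the control of its slide by 1.54, 1.18 and 0.58 on slides 2, 4 and 8.

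The other genes gave no call in males at 2 mg/kg. Sult2a2 had 0.17 to 0.61 in control males and 0.14 to 0.66 at 2 mg/kg, where 2 of 5 arrays were above background. Its difference was -0.14 (95% interval -0.68 to 0.40) without and 0.11 (-0.21 to 0.44) with slide as a block. Because these ratios sit near background, the interval does not bound a change of the message. In the log ratio of the scanner software the difference was -0.98 without and -0.31 with the block. A1bg had 0.00, 0.14, 0.28, 0.48 and 0.51 in control males. At 2 mg/kg it had 0.20, 0.21, 0.23, 0.63 and 1.49, and the highest value was that of male 86. Its difference was 0.49 with slide as a block (95% interval -0.01 to 0.99, adjusted p = 0.196). Cpa1 was above background on 0 of 5 control males and on 2 of 5 at 2 mg/kg, those being males 86 and 84 at 0.88 and 0.11, and its difference near background was 0.40 with the block (adjusted p = 0.233). Male 86 thus had the highest A1bg, Cpa1 and Prlr values among all males, while its Sult2a2 value was 0.47.

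Counted together, 0 of 5 genes were called in males at 2 mg/kg in limma with all arrays. Of all tested probes, 2.21% were called in either direction and 1.41% upward. Under the block 2 of 5 were called, both upward, beside 3.8% of all probes called in either direction and 2.42% called upward. The median difference of the 5 genes was 0.27 without and 0.49 with the block, and that of all tested probes was -0.04 and -0.02. The male controls of this comparison are those of the sex difference that helped choose the genes.

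**Figure D3:**
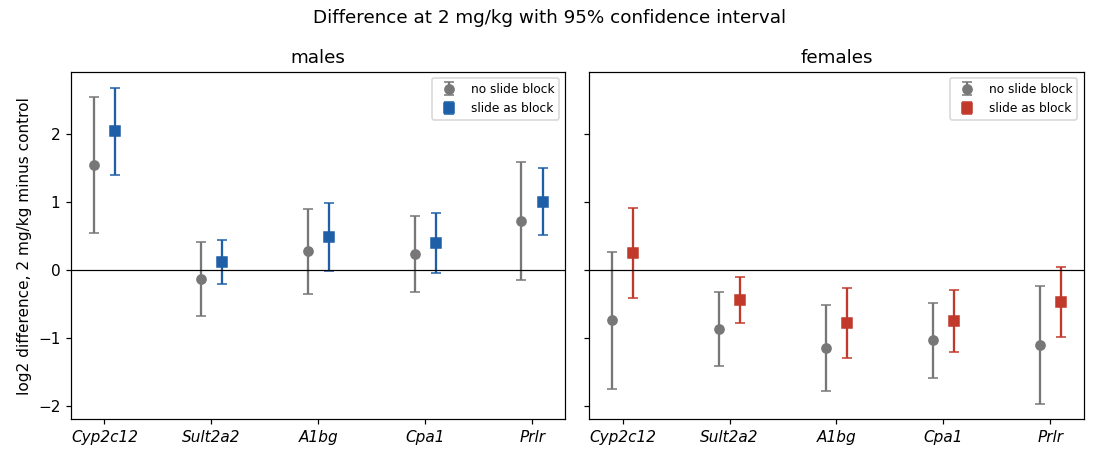
Log2 difference between 2 mg/kg and control (vertical axis) of each gene (horizontal axis) in males and females, with all arrays and no slide term (grey) and with slide as a block (coloured), with 95% confidence intervals. In males Cyp2c12 and Prlr lie above 0 with the block (4.10-fold and 2.00-fold higher), whereas in females the differences move toward 0 with it.

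At lower doses the male values gave no call for any of the 5 genes with or without the block. Among all tested probes, 0%, 0.0396% and 0% were called at 0.03, 0.12 and 0.5 mg/kg without the block and 0%, 0.17% and 0.141% with it. Cyp2c12 had mean ratios of 1.65 ± 1.30 (SD, n = 4) at 0.03 mg/kg, 2.26 ± 0.81 (n = 5) at 0.12 mg/kg and 2.64 ± 1.41 (n = 5) at 0.5 mg/kg, below the control mean of 2.95 at each dose. Blocked by slide, the difference was -0.80, -0.37 and 0.02 at these doses (limma adjusted p = 0.15, 1 and 0.988), so the only dose above controls by more than the spread was 2 mg/kg. The pairs within slides were lower than their control in 6 of 6 cases at 0.03 and 0.12 mg/kg, by 0.09 to 1.47, and higher in 2 of 2 at 0.5 mg/kg. Control 5 on slide 4 and control 6 on slide 8 each served at both 0.03 and 0.12 mg/kg, so these pairs are not independent. At 0.03 mg/kg the group includes the dim array, which had the lowest Cyp2c12 value of all males, 0.30, and gave the difference of 1.47. Prlr differed otherwise, with blocked differences of -0.21, 0.65 and 0.85 at 0.03, 0.12 and 0.5 mg/kg (adjusted p = 0.656, 0.557 and 0.181). Within slides Prlr exceeded its control in 4 of 4 males at 0.12 mg/kg and in 2 of 2 at 0.5 mg/kg, and in 0 of 2 at 0.03 mg/kg. Controls were shared between doses here as well.

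The slope over the 5 ordered doses in males was called for Cyp2c12, at 0.41 log2 units per dose step (limma adjusted p = 0.0383), beside 2.43% of all probes whose slope was called. Slopes and the test of any dose were called by an adjusted p of at most 0.05 alone, with no fold threshold. The blocked slope was called for Cyp2c12 at 0.49 (adjusted p = 2.37e-05) and for Prlr at 0.31 (adjusted p = 0.000336), beside 11.8% of all probes. An effect at any dose, tested with limma's F test, was called in males for Cyp2c12 (adjusted p = 0.00894, beside 1.37% of probes), and with the block for Cyp2c12 (3.34e-06) and Prlr (0.0023), beside 12.1%. The mean of all treated males differed from controls by -0.19 for Cyp2c12 and 0.22 for Prlr, and by 0.22 and 0.57 with the block, with no call (adjusted p of 0.149 to 0.789), beside 0.141% of all probes without and 0.401% with the block. With slide as a block Cyp2c12 was thus called at the top dose but not for treated males as a whole. With all arrays and no block it was called in neither of these comparisons.

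In females the mean of each of the 5 genes was lower at 2 mg/kg than in controls, and none passed the test. A1bg had 6.28, 6.88, 7.20, 7.75 and 8.11 in control females and 5.49, 5.84, 5.94, 6.08 and 7.10 at 2 mg/kg. The differences were -1.15 for A1bg (limma adjusted p = 0.0574), -1.04 for Cpa1 (0.0548), -1.10 for Prlr (0.141), -0.87 for Sult2a2 (0.0836) and -0.75 for Cyp2c12 (0.335). None of the 5 was called, beside 0.667% of all tested probes. For each gene 4 of 5 treated females lay below every control, and the remaining one was female 90, the 2 mg/kg female on slide 2. No share of all probes is given beside this count, so it cannot be read as particular to these genes. Hepatocyte genes with no sex difference moved alongside, and the median of the 5 was -1.03 in females, without a call. With slide as a block the differences were -0.78 for A1bg (adjusted p = 0.0919), -0.76 for Cpa1 (0.0617), -0.47 for Prlr, -0.45 for Sult2a2 and 0.24 for Cyp2c12, and the hepatocyte median was 0.01. None was called, beside 0.655% of all probes.

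Only 2 slides held both a control and a 2 mg/kg female, and the differences there were small. A1bg differed by -0.11 and -0.20, Cpa1 by 0.07 and -0.26, Prlr by -0.05 and -0.40, and Cyp2c12 by 0.01 and -0.32 between such arrays on slides 2 and 7. The female 2 mg/kg arrays on slides 5 and 8, where no control female was hybridised, had the lowest A1bg values. Furan dose and slide are thus partly confounded in females, and part of the unblocked differences cannot be told apart from the slides. Without the dim male array A1bg and Cpa1 were called at the unblocked values (adjusted p = 0.0418 and 0.0391), beside 1.73% of all probes. Without female 90 the differences were -1.13 for Sult2a2, -1.41 for A1bg, -1.31 for Cpa1 and -1.42 for Prlr. Without control 4 they were -1.08 for Sult2a2, -1.40 for A1bg and -1.23 for Cpa1. Each gene named for those fits was called there, and all 5 were with array weights. No share of all probes is given beside these calls, so they cannot be read against a background. The slope over doses was called downward in females for A1bg (-0.25 per step, adjusted p = 0.0374) and Cpa1 (-0.22, 0.0329), beside 3.72% of all probes, and with the block for Cpa1 alone (-0.17, adjusted p = 0.0354), beside 6.25%.

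Whether the change at 2 mg/kg differed between the sexes was tested as an interaction, the male minus the female difference. It was 2.29 for Cyp2c12, 1.82 for Prlr, 1.42 for A1bg, 1.27 for Cpa1 and 0.73 for Sult2a2. None was called in limma with all arrays (adjusted p of 0.71 to 0.997), beside 0.0113% of all probes. With slide as a block the values were 1.79, 1.48, 1.26, 1.16 and 0.57. Again none was called (limma adjusted p = 0.0724, 0.0519, 0.103, 0.0883 and 0.231), beside 0.107% of all probes. With the block and without the dim array Cyp2c12, Prlr, A1bg and Cpa1 were called (adjusted p = 0.0236, 0.024, 0.0485 and 0.0392), beside 1.08% of all probes. The A1bg difference in the blocked fit was 0.49 in males and -0.78 in females, and that of Cpa1 0.40 and -0.76. In control males A1bg was above background on 1 of 5 arrays and Cpa1 on 0 of 5, so a fall in males could hardly be seen. Both genes, like Sult2a2, passed the filter only through female arrays. Their interaction therefore cannot tell a different response of the sexes from the floor in males.

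Seen as a distance between the sexes, the Cyp2c12 gap was 7.08 log2 units in controls and 7.94, 7.54, 7.00 and 4.79 at 0.03, 0.12, 0.5 and 2 mg/kg. Blocked by slide, it was 6.96 in controls and 5.16 at 2 mg/kg. The Prlr gap was 4.76 in controls and 4.69, 3.83, 3.72 and 3.29 at the rising doses in the same fit. Sult2a2 had 7.00 in controls and 6.44 at 2 mg/kg, against male signals near background. Males at 2 mg/kg thus remained 35.9-fold below females for Cyp2c12 and 9.77-fold below for Prlr in the blocked fit.

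**Figure D4:**
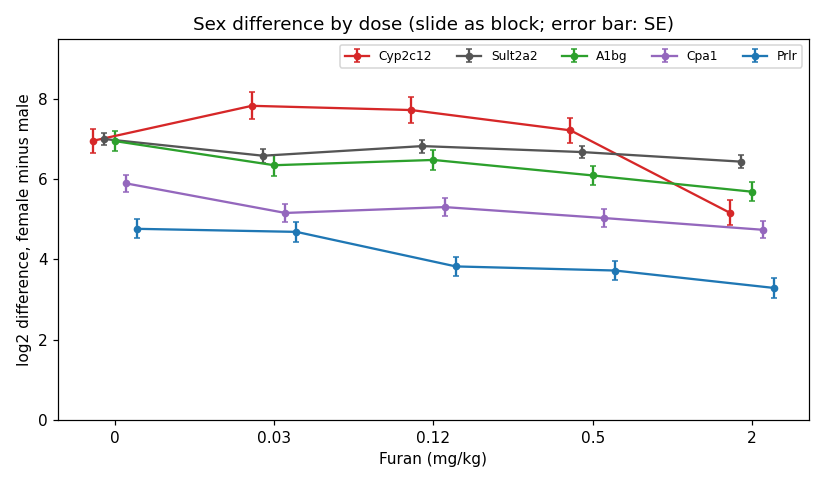
Log2 difference of females over males (vertical axis) for each gene by furan dose in mg/kg (horizontal axis), from the fit with slide as a block, with SE as error bars. The Cyp2c12 difference is 5.16 at 2 mg/kg against 6.96 in controls, and values for Sult2a2, A1bg and Cpa1 rest on male signals near background.

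Other genes of the same hormone axis were read from lists of textbook genes. Among 8 tested genes that are higher in female liver or raised by continuous growth hormone, Akr1b7, an aldo-keto reductase, was called upward in males at 2 mg/kg (limma adjusted p = 0.0186, and 0.00329 with the block). Its signal was above background on 0 of 5 control males and 3 of 5 at 2 mg/kg, so no size is given. Cyp2c7, a P450 of the same subfamily as Cyp2c12 that was about equal in both sexes here, fell by 0.62 with slide as a block (adjusted p = 0.0131) and was not called without it (-1.09). The remaining 6, among them Srd5a1 (steroid 5-alpha-reductase, 0.40 with the block) and Cyp3a9 (-0.22), were not called, and the median of the 8 was -0.49 without and -0.31 with the block. Cyp2c12 and Prlr were therefore not accompanied by a general rise of this list.

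Genes of the male pattern were lower in most cases without passing the test. Of 11 tested, 10 had negative differences in males at 2 mg/kg and 0 were called with or without the block, with a median of -0.86 and -0.59. Cyp2c11, the male-specific P450 that pulses of growth hormone induce, had -0.86 and -0.58 (limma adjusted p = 0.323 and 0.34). Bcl6, a repressor higher in male liver, had 1.29 and 1.34 (adjusted p = 0.161 and 0.0544). The hepatocyte list had medians of -0.84 and -0.42 in the same males, so highly expressed liver genes of no sex bias were lower as well.

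Genes of growth hormone signalling and its partner factors were read in the same males. Igf1, the growth factor that growth hormone induces in liver, fell by 0.68 with the block (limma adjusted p = 0.00972) and had -0.97 without it (adjusted p = 0.102). Stat3 was higher by 0.47 and 0.45 (adjusted p = 0.0317 and 0.0102), under the 1.5-fold needed for a call. Ghr, the growth hormone receptor, had -0.75 with the block and Onecut1 -0.47, and Stat5b -0.03, none of them called. Esr1, the oestrogen receptor, and Socs1 were too dim to test.

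Markers of other cell types were read beside these results. Cpa1 is an enzyme of pancreatic acinar cells, yet the acinar enzymes Prss1 and Pnlip were above background on 0 of 49 arrays and Clps on 1, while Cpa1 was on 25 of 25 female arrays. The summed level of the 10 acinar genes, as a mean ratio, ranged from -0.33 to -0.02 on male arrays. It was -0.33 to -0.10 at 2 mg/kg and -0.17 to -0.06 in control males. Bile duct genes were called in males at 2 mg/kg in 2 of 5 cases, Epcam at 0.98 (limma adjusted p = 0.00936) and Cftr at 0.77 (0.0453), and Krt19 also with the block (0.76, adjusted p = 0.0237). Cftr was above background on only 2 of 5 control males and 4 of 5 at 2 mg/kg, so its size is uncertain. The mean ratio of the bile duct genes was -1.90 to -1.41 in control males and -1.50 to -0.10 at 2 mg/kg. The part of bile duct cells in the Cyp2c12 and Prlr values was not tested.

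The genes most like Cyp2c12 over the 23 male arrays other than the dim one were Clic5 (Pearson r 0.91, Spearman rho 0.91), Aqp5 (0.90 and 0.91), Supv3l1 (0.90 and 0.87), Hspd1 (0.90 and 0.90) and Metap2 (0.88 and 0.87). Those most like Prlr were Acot5 (r 0.86), Fabp2 (0.83), Upp2 (0.82), Wscd1 (0.81) and Rapgef5 (0.81). The points share slides and a common fit, and after each slide's mean was removed r was 0.83 to 0.94 for the first set and 0.70 to 0.76 for the second. Without the 2 arrays farthest from the median of Cyp2c12 or Prlr, r was 0.83 to 0.88 and 0.76 to 0.84. These values describe likeness over these arrays, with no test.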

How the data were processed

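Agilent Feature Extraction 10.7.3.1 was used for the scanner output, per the submitters' processing notes and the file headers. The deposited files hold median spot and local background intensity values for both dyes, log10 ratios that this software had background-subtracted and dye-normalised, and flags for spots well above background. A second table of log2 ratios had been normalised by the authors in R. It ran in the same direction, liver over reference, its exact centring is not given (column medians -0.06 to -0.03), and only 7 of 49 columns matched their own array at r of at least 0.99, so it served by group and only as an alternative.

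Here the intensities were corrected by normexp (offset 50) and loess-normalised within arrays in limma 3.58.1 under R 4.3.3. Outlier and control spots were left out, and spots of a probe were averaged. Probes had to be above background on at least 4 arrays of 1 group, which left 17698. RefSeq (GRCr8) named 18004 of 30367 probes (59.3%) by accession. One mean per group was fitted over 49 arrays, first without and then with slide as a fixed block, and p-values were adjusted by Benjamini-Hochberg over all tested probes. Each array is 1 rat, and the number of arrays limits the precision. The rats of the sexes that share an animal number within a dose are different animals (residual correlation 0.23), so they were not paired. Genes named beyond the 5 come from textbook lists or are the 5 with the highest Pearson r. List genes were named mainly where they were called in males at 2 mg/kg, with or without the block, or were regulators. Being called was thus part of how they were picked, and the counts over each list are the fuller view. The members and lists were chosen with earlier results of these data known, including the sex difference in controls and the Cyp2c12 rise in males at 2 mg/kg. Some items of these lists are not reported here. The scripts were tested on simulated data.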

Additional observations from a re-analysis of the deposited data

Results flagged for a closer look

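Among 50 combinations of gene and group, 3 held an array whose gap to its nearest neighbour was large for the range of its group, where chance alone flags about 1 in 20. A1bg was 7.86 in female 30 at 0.03 mg/kg, on slide 4, the highest of that group. Sult2a2 was 0.84 in male 22 at 0.03 mg/kg, also on slide 4, and 1.03 in male 70 at 0.5 mg/kg, on slide 3. The male Sult2a2 values lie far below every female array.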

How the results depend on the processing

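Calls of the sex difference in treated rats are not counted over settings, since Sult2a2, A1bg and Cpa1 passed the filter only through female arrays. The mean of all treated males was called for 0 genes in every setting. In males at 2 mg/kg, where 0 genes were called with all arrays, 2 were called (Cyp2c12 and Prlr) with slide as a block, with the block and without the dim array, with slide as a random block and with an offset of 10 and the block. There, 1 gene (Cyp2c12) was called without the dim array, with the liver channel alone, with array weights, at an adjusted p of 0.1, and with the block in the liver channel or the scanner log ratio. Leaving out each array gave 0 to 1 genes (1 without male 81) and 2 with the block. Sult2a2 in males turned from -0.14 to 0.11 with the block, with or without the dim array, to 0.067 with the random block, 0.14 with median centring, 0.037 with offset 10 and the block, 0.0029 in the liver channel with the block, and 0.04 to 0.22 with the block and an array left out (-0.22 to -0.09 without the block). In females at 2 mg/kg, where 0 were called, 2 were called without the dim array and 2 in the authors' log2 table (A1bg and Cpa1), 1 (Cpa1) with the block without the dim array and 1 with the random block, 5 with array weights and 3 at an adjusted p of 0.1. Arrays left out in turn gave 0 to 4 (3 without control 4, 4 without female 90), and 0 to 1 with the block. Cyp2c12 in females turned from -0.75 to 0.24 with the block, 0.19 with the block and without the dim array, 0.086 with the random block, 0.12 with the block and offset 10 or the scanner ratio, and 0.03 to 0.41 with the block and an array left out (-0.96 to -0.58 without the block). Sult2a2 and Prlr in females turned to 0.26 and 0.13 in the scanner ratio with the block, and Cpa1 to 0.067 in the liver channel and 0.12 there with the block. The interaction was called for 0 genes with all arrays, 4 with the block and without the dim array and 3 with array weights, and for 0 to 1 with arrays left out. It turned for Sult2a2 to -0.12 in the scanner ratio and -0.57 there with the block, and for Cpa1 to -0.030 in the liver channel with the block. The slope in males was called for 1 gene with all arrays and 0 to 2 with arrays left out. It was called for 2 with the block, also without the dim array, with the random block, with offset 10 or the scanner ratio and the block, and for 0 with median centring, the authors' log2 table, no filter on dim probes and a test against the fold threshold. Beyond the shares of all probes given above, none is given for these fits. Counts such as those with array weights or arrays left out therefore have no background beside them. The cause of these changes was not tested.

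With the animal number within dose as a replicate block, the interaction was 2.25 for Cyp2c12 (limma adjusted p = 0.507) and 1.75 for Prlr. It was 0.71 for Sult2a2, 1.38 for A1bg and 1.27 for Cpa1, and 0 were called. The mean over all probes of a gene gave no other value, since each gene has 1 probe. The fits that join the slide with an offset, the liver channel, the scanner ratio or an array left out were chosen after seeing the data. In males, A1bg, Cpa1 and Sult2a2 lie near background, which limits what a ratio can show there.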
